A study of Mus musculus with 2 samples.

Results

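Gas6, the TAM receptors and further genes of efferocytosis, the uptake of dying cells by phagocytes, were followed across the immune cells of 143B tumors treated with control IgG or anti-CD3L1. The 8 genes, taken as a list by symbol out of 32285 mouse genes, were Gas6 (ENSMUSG00000031451), Pros1, Axl (ENSMUSG00000002602), Mertk (ENSMUSG00000014361), Tyro3, Timd4, Stab1 and Mfge8. Each symbol matched 1 gene in the count tables. Here TAM stands for the receptor family of Tyro3, Axl and Mertk and not for tumor-associated macrophages.

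A dying cell exposes phosphatidylserine, a lipid that healthy cells keep on the inner face of their membrane. Gas6 and protein S, the product of Pros1, bind this lipid at one end and a TAM receptor tyrosine kinase at the other, while Timd4 and Stab1 bind phosphatidylserine directly and Mfge8 links it to integrins. Mertk is best known for uptake of dead cells by resident macrophages and Axl for induction in inflamed tissue.

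RNA came from CD45 magnetic bead-isolated cells of 143B tumors, a human osteosarcoma line, in nude mice that lack T cells and were 4 weeks old at the start. Mice received 10 mg/kg human IgG1 isotype control (control IgG) or 10 mg/kg anti-CD3L1, a humanized IgG1 antibody against human CD3L1 (ITPRIPL1), a ligand of CD3 studied as an immune checkpoint. Each group gave 1 droplet library from 3 pooled tumors, whose cells cannot be assigned to a tumor. Groups were therefore not tested across samples, and the 95% intervals below cover counting error only. Levels are given in CPM, the unique molecular identifiers (UMIs) of a gene per 1000000 UMIs of the same cells, and are compared between cells, not between genes.

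The control IgG library kept 8557 cells with a median of 5526 UMIs, and the anti-CD3L1 library 11269 cells with a median of 8267 UMIs. The libraries shared 26 cell barcodes. A UMI of Ptprc, which encodes CD45, was found in 95.1% and 91.1% of cells. Cells were assigned to classes by marker genes, and 502 and 1600 cells matched no class. Neutrophil-like cells were 5607 under control IgG and 494 under anti-CD3L1, whereas C1q macrophage-like cells, gated by C1qa, C1qb, C1qc and Ms4a7, were 341 and 3046. The monocyte-like class held 986 and 2297 cells. A further 692 and 1911 cells passed only a gate of general phagocyte genes that included Csf1r, Adgre1 and Cd68. This Csf1r-gated remainder was led by Ctsk in both libraries and had none of its gating genes among its 10 leading genes, so it is named by its gate alone. Most other leading genes differed, such as Cav1 and Rasgrf1 under control IgG and Dcstamp and Inhba under anti-CD3L1. The remainder need not hold like cells in both libraries.

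Gas6 was found mainly in the C1q macrophage-like class, which held 72.5% of its UMIs under control IgG and 71.9% under anti-CD3L1. Its level in these cells was 31.0 CPM (interval 26.3 to 36.3, 153 UMIs) under control IgG and 28.3 CPM (26.5 to 30.2, 892 UMIs) under anti-CD3L1, with overlapping intervals. Cells positive for both C1q and monocyte markers had 22.5 and 33.3 CPM, in the same range. Monocyte-like cells had 0.564 and 1.31 CPM, and the Csf1r-gated remainder had 1.18 and 2.44 CPM. These values lay below the level in free RNA, read from barcodes with 10 to 100 UMIs, which was 3.99 and 10.4 CPM. Gas6 was also high in 27 fibroblast-like cells of the anti-CD3L1 library, at 200.2 CPM (164 to 242, 107 UMIs).

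Pros1 was spread more widely than Gas6. In the control IgG library its order was C1q macrophage-like at 13.4 CPM, monocyte-like at 12.3 CPM and the Csf1r-gated remainder at 9.17 CPM, all with overlapping intervals. In the anti-CD3L1 library the order was monocyte-like at 18.9 CPM (17.0 to 21.0), C1q macrophage-like at 17.6 CPM (16.2 to 19.2) and the remainder at 9.37 CPM (7.91 to 11.0), where only the remainder stood apart. The 87 cDC2-like cells of the anti-CD3L1 library had 29.7 CPM, and the fibroblast-like cells had 161 CPM. NK-like cells, which served as a comparison class, had 0 and 8 UMIs of Pros1, the latter 1.49 CPM. Free RNA held 2.85 CPM under control IgG and 15.1 CPM (11.8 to 19.1) under anti-CD3L1, above the remainder of that library and with an interval that overlapped those of its C1q macrophage-like and monocyte-like cells.

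Axl was present in every mononuclear phagocyte class, and the order of the classes differed between the libraries. Under control IgG the C1q macrophage-like cells had 114.5 CPM (105 to 124, 565 UMIs), above monocyte-like cells at 23.9 CPM (21.2 to 26.7) and the Csf1r-gated remainder at 18.2 CPM (15.5 to 21.3), which overlapped each other only narrowly. Under anti-CD3L1 the C1q macrophage-like cells had 158.5 CPM (154 to 163, 4994 UMIs) and the remainder had 137.9 CPM (132 to 144). Monocyte-like cells followed at 78.0 CPM (74.1 to 82.0) and mature DC-like cells, which carry Ccr7 and Fscn1, were at 89.1 CPM (74.9 to 105). Axl in free RNA was 17.1 CPM under control IgG and 93.9 CPM under anti-CD3L1, and in NK-like cells it was 0.810 and 6.70 CPM. The interval of the remainder held the free RNA level under control IgG. Monocyte-like cells lay below free RNA under anti-CD3L1.

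Mertk was highest in C1q macrophage-like cells of both libraries among classes of at least 20 cells. It stood there at 81.7 CPM (73.9 to 90.1, 403 UMIs) under control IgG and 55.6 CPM (53.0 to 58.3, 1752 UMIs) under anti-CD3L1. The Csf1r-gated remainder had 19.1 and 27.4 CPM, and monocyte-like cells had 5.48 and 18.5 CPM. In NK-like cells Mertk was at 2.43 and 0.931 CPM, and in free RNA at 13.7 CPM (10.1 to 18.1) and 17.2 CPM (13.7 to 21.4). The monocyte-like level lay below free RNA under control IgG and overlapped it under anti-CD3L1. The fibroblast-like cells, which had 70 UMIs of Axl, had 0 UMIs of Mertk, which allows up to 5.61 CPM.

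Stab1, which encodes the scavenger receptor stabilin-1, was at 111 CPM (102 to 121, 548 UMIs) in the C1q macrophage-like class under control IgG, the highest level of any class of at least 20 cells there. Under anti-CD3L1 it was 65.5 CPM (62.7 to 68.3, 2062 UMIs) there, below the 77.8 CPM (68.6 to 88.0) in the cells positive for both C1q and monocyte markers. The Csf1r-gated remainder had 56.3 and 32.2 CPM and monocyte-like cells 25.6 and 21.8 CPM. Free RNA held 35.9 and 43.8 CPM.

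Tyro3 was nearly absent, with 8 UMIs over all cells under control IgG and 42 under anti-CD3L1. C1q macrophage-like cells had 0 UMIs under control IgG, which allows up to 0.608 CPM, and 5 UMIs under anti-CD3L1. NK-like cells held 2 and 12 of these UMIs. No ratio was taken for Tyro3.

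**Figure D1:**
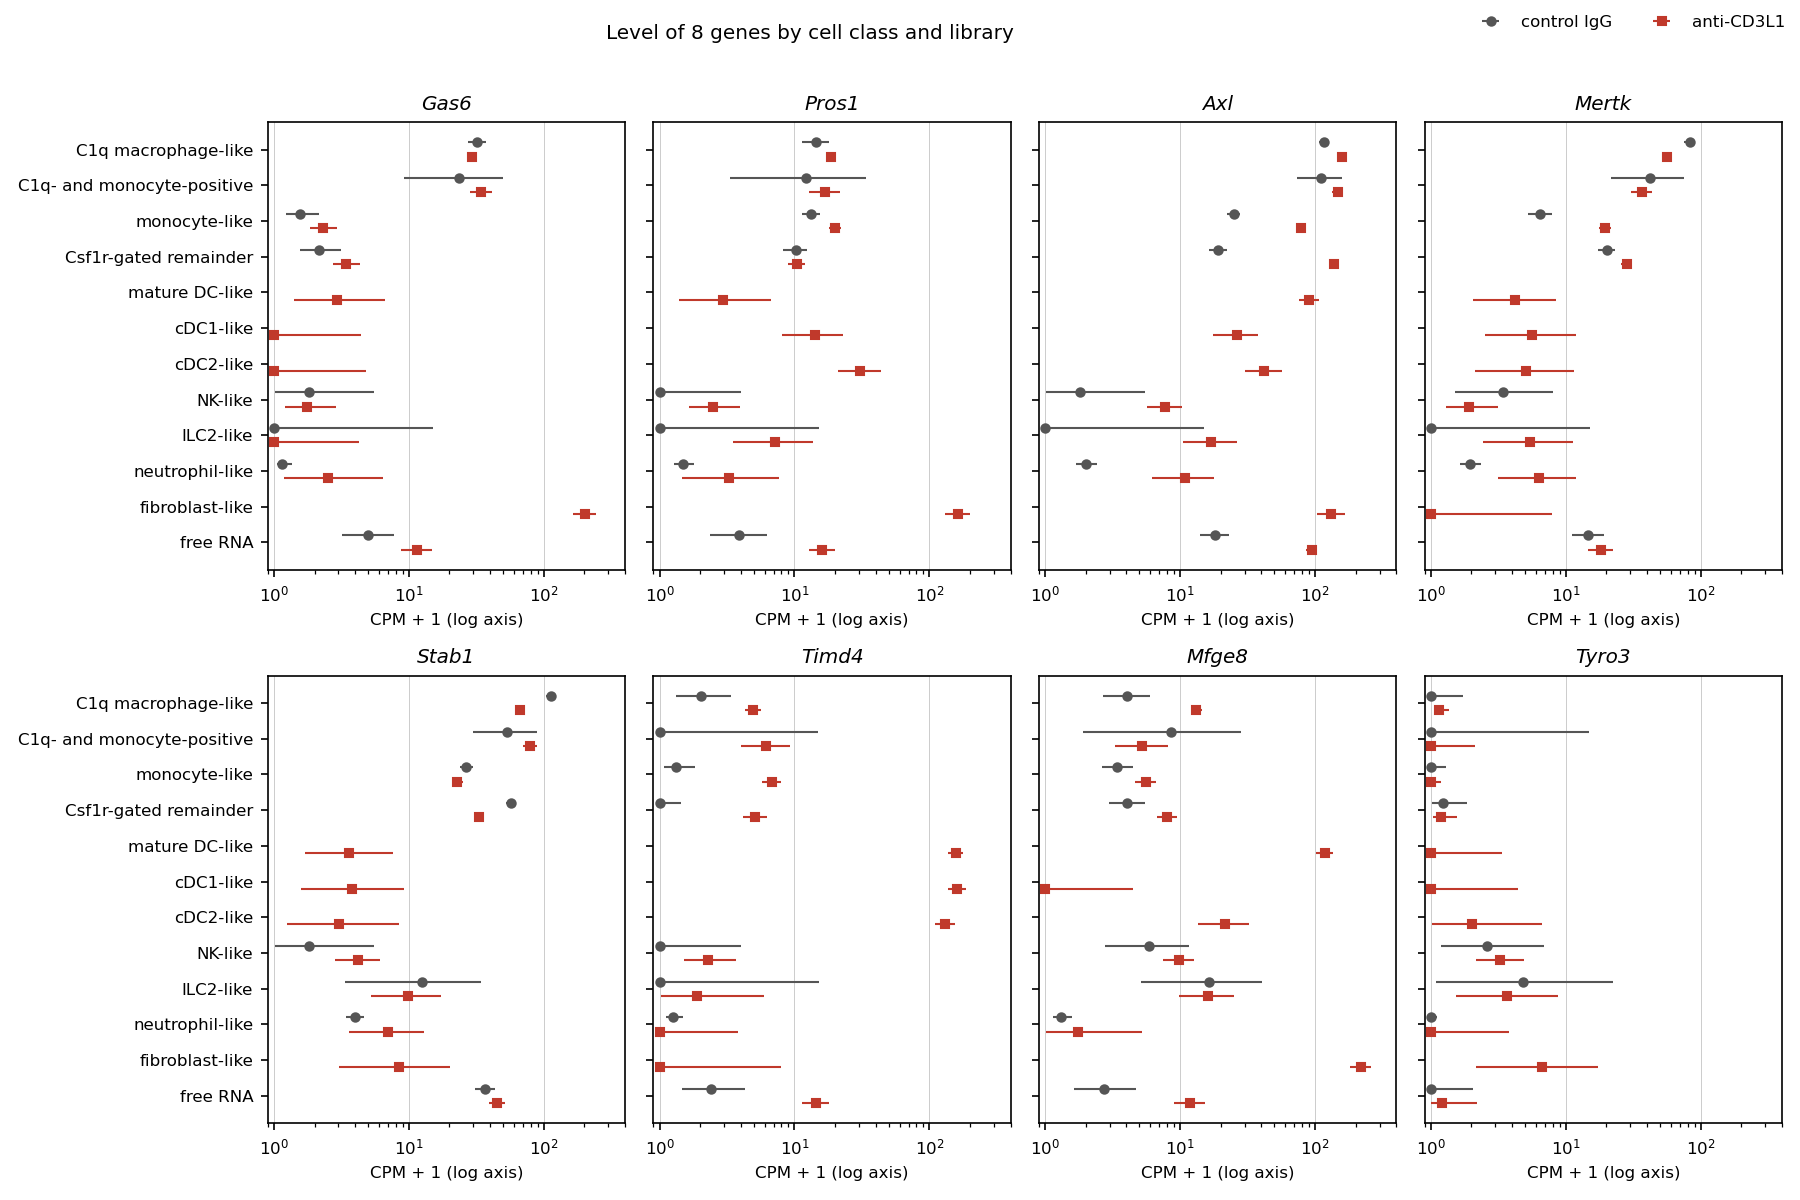
Level of each of the 8 genes in CPM + 1 on a log axis, by cell class and library. Circles are control IgG, squares are anti-CD3L1, bars are exact Poisson 95% intervals, and classes under 20 cells in a library are left out. Gas6, Mertk and Stab1 sit highest in C1q-positive classes among the leukocytes, while Timd4 and Mfge8 sit highest in dendritic or fibroblast-like cells.

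Timd4, a phosphatidylserine receptor known from resident macrophages, had its highest levels in dendritic cell classes. In the anti-CD3L1 library it was at 159 CPM in 66 cDC1-like cells, 156 CPM in 137 mature DC-like cells and 130.0 CPM in 87 cDC2-like cells, with overlapping intervals. The few such cells of the control IgG library gave 36 UMIs in 14 mature DC-like cells, or 216.5 CPM, 17 UMIs in 7 cDC2-like cells and 0 UMIs in 4 cDC1-like cells. C1q macrophage-like cells had only 1.01 CPM (5 UMIs) and 3.94 CPM (124 UMIs), below the 13.4 CPM of free RNA in the anti-CD3L1 library. After every cell was thinned to 1000 UMIs, 0.231% (0.0929 to 0.475) of these macrophage-like cells of the anti-CD3L1 library kept a Timd4 UMI, and 0 of 592 NK-like cells did, which allows up to 0.507%. These shares did not tell the classes apart at this depth. On all UMIs NK-like cells of that library had 1.30 CPM (0.524 to 2.68, 7 UMIs), below the 3.94 CPM (3.27 to 4.69) of the macrophage-like cells, which in turn lay below free RNA, so no reading as expression or background is given.

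A further 629 of the 1633 Timd4 UMIs of the anti-CD3L1 library lay in 149 of its 1600 ungated cells. Of these 149 cells, 96.0% carried a UMI of the 9 dendritic cell markers, against 39.3% of the ungated cells without Timd4, with medians of 10774 and 5218 UMIs per cell. H2-Ab1, an MHC class II gene, was at 6042 CPM in the former and 2205 CPM in the latter. A UMI of such a marker alone does not identify a dendritic cell. In C1q macrophage-like cells of this library the cDC1 markers also summed to 304 CPM. In the control IgG library 10 of 502 ungated cells held 42 Timd4 UMIs, and 80.0% of them carried a dendritic cell marker.

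Mfge8, which encodes a secreted bridging protein, was highest in the fibroblast-like cells of the anti-CD3L1 library at 217 CPM (179 to 260, 116 UMIs). The mature DC-like cells there had 117 CPM (101 to 135). C1q macrophage-like cells had 3.04 CPM (15 UMIs) and 12.2 CPM (383 UMIs), but 1 cell of the anti-CD3L1 library held 196 of these 383 UMIs and the next cell 13. That cell had 18078 UMIs in all, 89 of them from the C1q gating genes and 0 from fibroblast or mature DC markers. NK-like cells had 4.86 and 8.75 CPM, and the macrophage-like value of the control IgG library was no higher than theirs. The 12.2 CPM of the anti-CD3L1 library rested in large part on that 1 cell. Macrophage-like cells of that library with a UMI of the gene Folr2, which did not include it, had 5.89 CPM (89 UMIs). The 12.2 CPM is therefore not read as a level above NK-like cells.

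In C1q macrophage-like cells the receptors differed between the libraries in opposite directions. Axl was 1.38-fold as high under anti-CD3L1 as under control IgG, a log2 ratio of 0.47 (0.34 to 0.60). Mertk was lower by a log2 ratio of -0.55 (-0.71 to -0.39) and Stab1 by -0.76 (-0.90 to -0.62). Both lower genes had fewer UMIs per cell as well, 1.18 and 0.575 for Mertk and 1.61 and 0.677 for Stab1, whereas Axl had 1.66 and 1.64 UMIs per cell. The classes differed in depth, with medians of 14289 and 10096 UMIs per cell.

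For the TAM ligands Gas6 and Pros1 the differences were less certain. Gas6 had a log2 ratio of -0.13 (-0.38 to 0.13), so a difference was not detectable in this sum. Pros1 had 0.40 (0.03 to 0.79), an interval that held 0 under 4 other settings, with values from 0.29 to 0.36 there. Timd4 and Mfge8 had log2 ratios of 1.96 (0.70 to 3.61) and 1.999 (1.26 to 2.85), at the low levels given above. Without the cell of most Mfge8 UMIs in each library, an alternative chosen after seeing the data, the latter was 1.06 (0.28 to 1.96). Of 13756 genes with at least 20 UMIs over both libraries, 6.62% were at least 2-fold higher and 5.68% at least 2-fold lower under anti-CD3L1. Of the 7 genes tested here 2 were higher, the low-level Timd4 and Mfge8, and 0 were lower. The median log2 ratio was 0.39 against -0.004 over all genes tested. That median is the value of Pros1 alone, whose interval was not stable, and 4 of the 7 genes were above 0. No shift of the 7 genes as a set is read from these values.

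The gate bore on these ratios. Macrophages were also gated by this Csf1r set, at a stricter cut than for the remainder, in place of the C1q genes. This compared 559 and 2764 cells. The log2 ratio of Axl was then 1.40, that of Gas6 turned to 0.66, that of Mertk shrank to -0.16 and that of Stab1 was -0.53. Within the C1q class neutrophil markers summed to 898 CPM under control IgG and 189 CPM under anti-CD3L1, with 0 of 6 markers at 0 in either. In free RNA the neutrophil markers summed to 70790 and 1549 CPM. Monocyte markers summed to 371 and 579 CPM and fibroblast markers to 16.8 and 7.24 CPM, each with 0 of 6 at 0. Their part in the ratios was not tested.

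Shares of cells with a UMI gave a less sharp view. Before thinning, Mertk was found in 39.3% and 30.9% of C1q macrophage-like cells, Stab1 in 58.9% and 36.3%, Axl in 61.9% and 67.8% and Gas6 in 24.0% and 13.5%. With cells thinned to 1000 UMIs, which left 340 and 3031 cells, the shares of Mertk were 5.59% (3.40 to 8.59) and 5.74% (4.94 to 6.63) and those of Stab1 7.06% (4.57 to 10.3) and 6.14% (5.31 to 7.05). Those of Axl were 10.9% (7.78 to 14.7) and 14.4% (13.2 to 15.7), and those of Gas6 2.65% (1.22 to 4.97) and 2.74% (2.19 to 3.38). All these intervals at 1000 UMIs overlapped between the libraries. Thinned to 2000 UMIs, Stab1 was found in 18.6% and 10.8% of cells, Mertk in 11.5% and 9.25%, Gas6 in 7.99% and 4.86% and Axl in 18.6% and 24.7%. The differences of Gas6 and Mertk, near 0 at 1000 UMIs, were thus -3.13 and -2.29 percentage points at 2000 UMIs. Each depth was a separate random draw and no interval was computed at 2000 UMIs, so no change with depth is read. NK-like cells thinned to 1000 UMIs gave at most 0.507% for Axl, from medians of 10430 and 8186 UMIs before thinning.

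The UMIs were not shared evenly among the macrophage-like cells. The 10% of C1q macrophage-like cells with most Gas6 held 69.3% of its UMIs under control IgG and 88.1% under anti-CD3L1. For Mertk the shares were 65.0% and 59.9%, for Stab1 40.9% and 54.8%, and for Axl 39.8% and 34.4%. Cells were ranked by the same UMIs, so counting alone raises these shares, the more so at few UMIs per cell. Gas6 had 0.449 and 0.293 UMIs per cell. The share expected from counting was not computed, so no difference between the libraries is read from these shares. A median cell held 1 Axl UMI in both libraries and 0 Gas6 or Mertk UMIs.

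**Figure D2:**
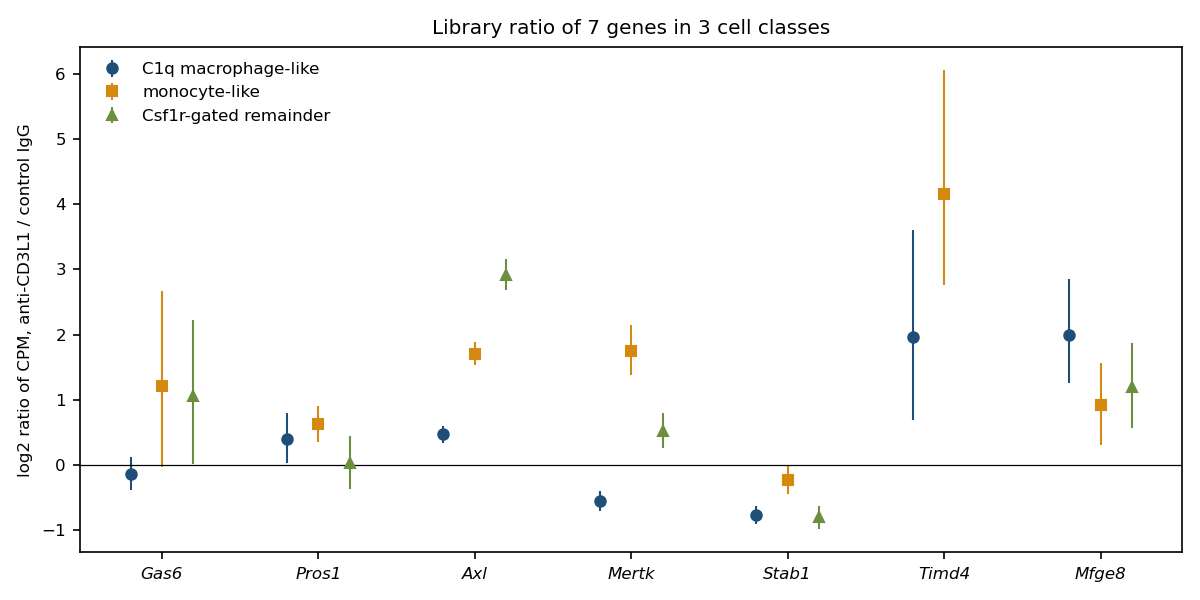
Log2 ratio of CPM under anti-CD3L1 over control IgG for 7 genes in the C1q macrophage-like class, the monocyte-like class and the Csf1r-gated remainder. Points are ratios of summed UMIs and bars 95% counting intervals, and Timd4 has no point in the remainder because its control IgG count there was 0. Mertk lies below 0 in C1q macrophage-like cells and above 0 in both other classes, while Axl lies above 0 in all.

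Axl and Mertk were both higher under anti-CD3L1 in monocyte-like cells and in the Csf1r-gated remainder. The rise of Axl was not confined to these classes. Neutrophil-like cells had a log2 ratio of Axl of 3.30 (2.25 to 4.27) from 32 and 13 UMIs, at levels below free RNA. NK-like cells had 3.05 (0.48 to 8.39) from 1 and 36 UMIs. Cells of several classes had 0.91 (0.56 to 1.26), and cells that matched no class 1.70 (1.32 to 2.10). A rise of Mertk was not seen in NK-like cells, with 3 and 5 UMIs, or in cells of several classes, at 16.9 and 15.1 CPM. Cells positive for both C1q and monocyte markers had 41.2 and 35.7 CPM, from only 25 cells under control IgG. Intervals overlapped in each. The NK-like counts and these 25 cells were too few to exclude a rise. In monocyte-like cells Axl had a log2 ratio of 1.71 (1.53 to 1.89) and Mertk of 1.75 (1.38 to 2.15), where the median gene stood at 0.26. Pros1 had 0.63 (0.35 to 0.91), and Timd4 went from 4 to 110 UMIs, a log2 ratio of 4.16 (2.76 to 6.06). Stab1 had -0.24 (-0.45 to -0.02), but 0.02 with the gate thresholds doubled, so no direction is given for it. Of 12921 genes tested in this class 11.0% were at least 2-fold higher and 2.43% at least 2-fold lower, and of the 7 genes 4 were higher and 0 lower. These were Axl, Mertk, Timd4 and Gas6, the last from 7 and 25 UMIs with a log2 interval of -0.04 to 2.67. C1q genes, the gate of the macrophage class, summed to 166 and 278 CPM in these monocyte-like cells, with 0 of 4 at 0. Their part in the Mertk and Axl ratios was not tested. Nor was that of free RNA in the ratios of Axl, Mertk, Timd4 and Gas6. Neutrophil markers summed to 2636 CPM in monocyte-like cells under control IgG and to 70790 CPM in free RNA of that library. Fibroblast markers summed to 6.91 CPM in monocyte-like cells under anti-CD3L1 and to 163 CPM in free RNA there. Under anti-CD3L1 free RNA lay above the Axl, Gas6 and Timd4 levels of these cells, with Timd4 at 5.76 CPM. No reading as expression is given for Timd4 or Gas6 in this class.

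In the Csf1r-gated remainder Axl had the widest gap of these genes with a ratio, 7.56-fold (6.42 to 8.96) or 2.92 on the log2 scale. It was 2.34 as a mean over cells and 2.57 with gate thresholds doubled. Subtracting the mean UMIs of NK-like cells gave 2.90, but their Axl, at 0.810 and 6.70 CPM, was too low to move the ratio. With macrophages gated by a stricter cut on the Csf1r set in place of the C1q genes, it was 1.68. The remainder was then a different set of cells. The control IgG level of Axl here was near that of free RNA, whose part in the ratio was not tested. Neutrophil markers summed to 1695 CPM in the remainder under control IgG and to 70790 CPM in free RNA of that library. Fibroblast markers summed to 8.60 CPM in the remainder under anti-CD3L1 and to 163 CPM in free RNA there. Mertk had 0.52 (0.26 to 0.79) and Stab1 -0.81 (-0.99 to -0.62). Stab1 was thus lower under anti-CD3L1 both here and in the C1q class. Timd4 had 0 UMIs under control IgG, which allows up to 0.353 CPM, and 64 UMIs or 4.11 CPM under anti-CD3L1. The latter lay below the Timd4 level of free RNA in that library. C1q genes summed to 669 and 748 CPM in this remainder, with 0 of 4 at 0.

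Over all cells the 7 genes were all higher under anti-CD3L1, and their ratios were smaller once the classes were weighted alike. The share of all genes higher in this sum was not computed, so that number is not read as a result about the 7 genes. Gas6 was 3.14 CPM under control IgG and 12.7 CPM under anti-CD3L1 in this sum, a ratio of 4.04. With the class levels of the anti-CD3L1 library weighted by the class shares of UMIs under control IgG, the ratio was 1.33. For Axl the ratios were 5.68 and 2.97, for Mertk 2.61 and 1.34, and for Pros1 2.86 and 1.70. Stab1 turned from 1.49 to 0.740. C1q macrophage-like cells gave 7.33% of all UMIs under control IgG and 32.2% under anti-CD3L1, and neutrophil-like cells 47.7% and 1.35%.

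**Figure D3:**
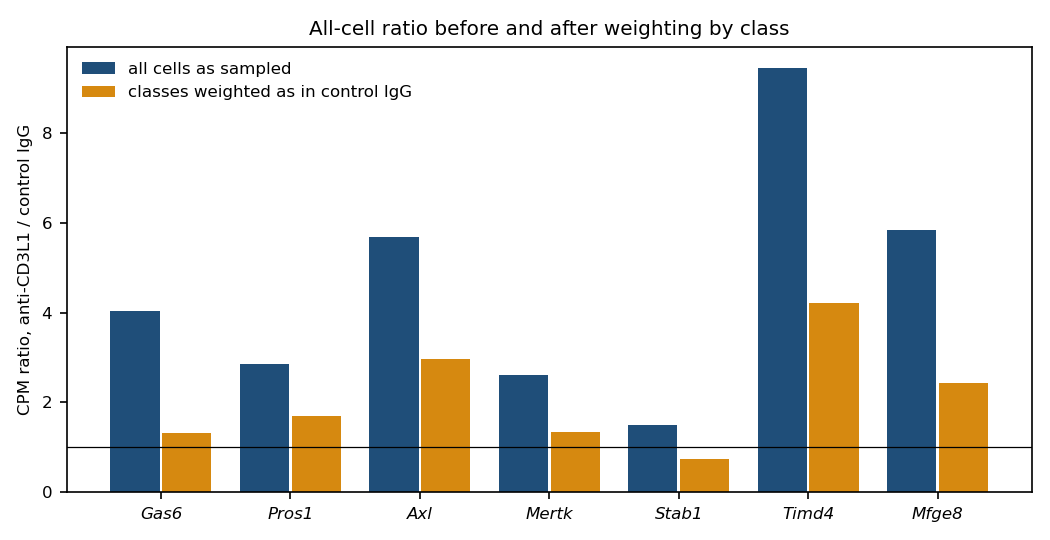
Ratio of CPM over all cells under anti-CD3L1 to that under control IgG for 7 genes, as sampled and with the classes of the anti-CD3L1 library weighted as in the control IgG library. The line marks a ratio of 1, and no interval is drawn. The weighted bar is the lower of the pair for each gene, and for Stab1 it falls from 1.49 to 0.740.

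Within the C1q class, cells with a UMI of Folr2, a folate receptor of tissue macrophages, carried 78 of 153 Gas6 UMIs under control IgG. Such cells carried most of the Gas6 under anti-CD3L1, 725 of 892 UMIs. They were 117 of 341 cells (34.3%) under control IgG and 1322 of 3046 (43.4%) under anti-CD3L1. Under control IgG Gas6 was 42.5 CPM (33.6 to 53.1) in Folr2-positive and 24.2 CPM in Folr2-negative cells, a ratio of 1.76 (1.26 to 2.45). Under anti-CD3L1 it was 48.0 CPM and 10.2 CPM, a ratio of 4.71 (3.98 to 5.61). The cells differed in depth, with medians of 15211 and 13716 UMIs under control IgG and 11000.0 and 9303 under anti-CD3L1.

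The other genes followed Gas6 only in part in this split. Stab1 was 1.67-fold (1.40 to 1.98) and 1.75-fold (1.60 to 1.92) as high in Folr2-positive cells of the 2 libraries. Pros1 had ratios of 1.03 (0.600 to 1.74) and 1.52 (1.28 to 1.80). Mertk had ratios of 1.36 (1.11 to 1.67) and 0.963 (0.876 to 1.06). The first, 0.45 on the log2 scale, was 0.24 (-0.06 to 0.55) without the 1 cell of most Mertk UMIs, chosen after seeing the data, and 1.02 (0.70 to 1.32) with Folr2-positive cells taken at 2 UMIs. Axl had 0.884 (0.739 to 1.05) and 0.793 (0.749 to 0.839). Between the libraries Gas6 differed little in Folr2-positive cells, with a log2 ratio of 0.17 (-0.16 to 0.53), and was lower under anti-CD3L1 in Folr2-negative cells, with -1.25 (-1.65 to -0.84). Mertk was lower in both, by log2 ratios of -0.85 and -0.35, as was Stab1, by -0.82 and -0.89, and Axl was higher in both, by 0.40 and 0.56.

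**Figure D4:**
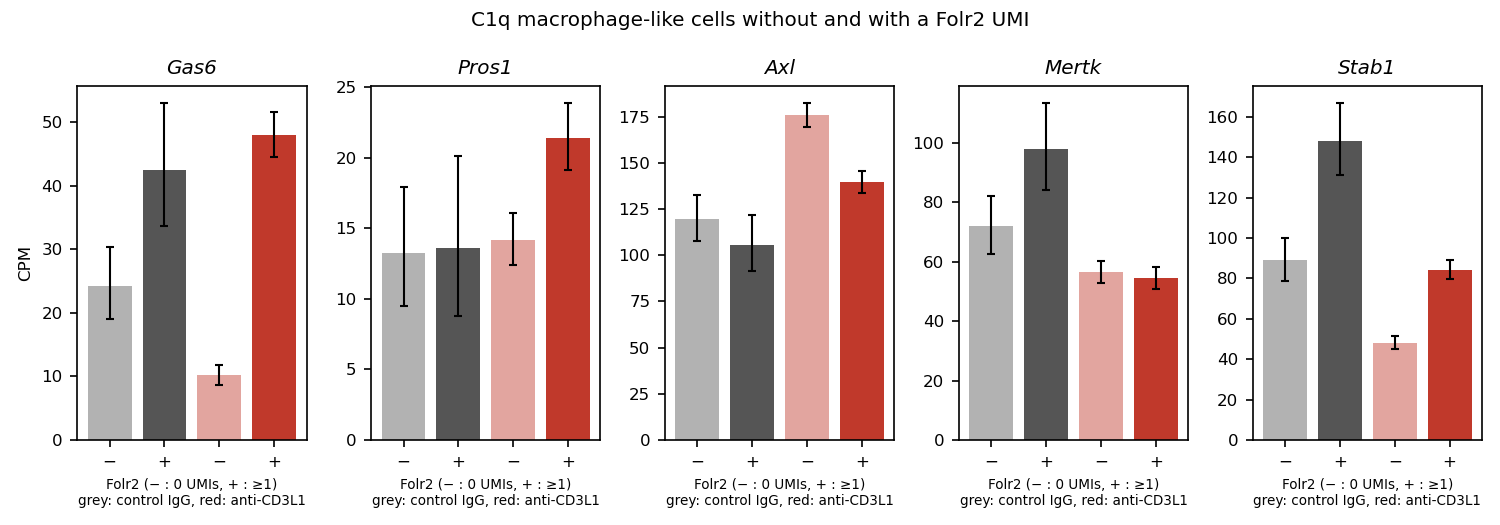
CPM of Gas6, Pros1, Axl, Mertk and Stab1 in C1q macrophage-like cells without (-) and with (+) a Folr2 UMI. Grey bars are control IgG, red bars anti-CD3L1, and error bars exact Poisson 95% intervals. The gap between Folr2-negative and Folr2-positive cells is widest for Gas6 under anti-CD3L1, 10.2 against 48.0 CPM.

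Mertk and Stab1 also had like profiles across cells. Over 17 sums of class and library with at least 50 cells, their log2(CPM + 10) values had a Pearson r of 0.938, and the sums share libraries and depths. Of 6031 genes, those most like Mertk were Vcam1 (r = 0.973), Ms4a7 and Itm2b, and those most like Stab1 were Itm2b (0.978) and Ms4a7. Gas6 was most like C1qc (0.971), Ccl8 (0.969) and C1qb, of which the C1q genes and Ms4a7 were also used for the gate. Axl was most like Anxa4 (0.917), Plpbp and Dnase2a, and Pros1 was most like Rraga (0.910) and Tep1. Timd4 was most like Zfp366 (0.947), Htr7 and Plppr4, and Mfge8 was most like Il4i1 (0.909), Rgs12 and Ccl22. The genes nearest to Tyro3 were Mid2 (0.957), Rab27b and Ccl1, at a highest Tyro3 level of 2.67 CPM from which nothing can be read.

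The 250 bases before the start sites of Mertk and Stab1, both lower under anti-CD3L1 in C1q macrophage-like cells, and of Axl, which was higher, are shown 5′ to 3′ on the gene's strand. They are from RefSeq (GRCm38.p6), which held all 8 genes, and capitals mark the GC box GGGCGG on either strand.
Mertk (chr2:128698665-128698914, + strand): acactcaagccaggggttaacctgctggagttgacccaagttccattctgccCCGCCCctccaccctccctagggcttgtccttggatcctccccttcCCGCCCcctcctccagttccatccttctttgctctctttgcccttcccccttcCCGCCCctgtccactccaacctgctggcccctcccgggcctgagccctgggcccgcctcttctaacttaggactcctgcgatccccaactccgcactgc
Stab1 (chr14:31168642-31168891, - strand): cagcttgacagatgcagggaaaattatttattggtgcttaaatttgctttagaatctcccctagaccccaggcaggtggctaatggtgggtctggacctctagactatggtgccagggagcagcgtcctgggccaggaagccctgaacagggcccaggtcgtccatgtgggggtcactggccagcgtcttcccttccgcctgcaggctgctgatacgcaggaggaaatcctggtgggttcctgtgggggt
Axl (chr7:25788734-25788983, - strand): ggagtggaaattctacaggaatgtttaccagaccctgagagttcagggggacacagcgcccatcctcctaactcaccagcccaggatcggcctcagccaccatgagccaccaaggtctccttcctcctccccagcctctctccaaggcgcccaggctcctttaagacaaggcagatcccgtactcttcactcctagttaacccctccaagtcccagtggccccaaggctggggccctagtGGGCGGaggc

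Mertk held 3 GC boxes, Axl 1 and Stab1 0 in these windows, and 32.7% of 32851 promoter windows of the same length held at least 1. The GC content was 63.6% for Mertk, 57.2% for Stab1 and 60.0% for Axl, against a median of 52.4% over all windows. GGAAGT, a core of sites for ETS factors, was found in none of these 3 windows and among the 8 genes only for Timd4, against 19.7% of all windows. TATAAA was found in 0 of the 8, against 12.4%. Each motif was searched on both strands.

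Other genes of the pathway were followed in 4 lists. Among all genes tested in C1q macrophage-like cells, 6.62% were at least 2-fold higher under anti-CD3L1 and 5.68% lower. Their median log2 ratio was -0.004. Of 16 tested receptors and bridging molecules in C1q macrophage-like cells, 4 were at least 2-fold higher under anti-CD3L1 and 0 lower, with a median log2 ratio of 0.21. Cd36, a scavenger receptor for oxidized lipids, was at 24.1 and 122.7 CPM, a log2 ratio of 2.35 (2.08 to 2.62). Colec12, a scavenger receptor with a collectin domain, was at 61.8 and 200.4 CPM, a log2 ratio of 1.70 (1.53 to 1.87). The other 2, Itgb3 with 5 and 72 UMIs and Megf10 with 1 and 32 UMIs, had intervals that held 0. The lowest ratios above 20 CPM were those of Havcr2 at -0.44 and Scarb1 at -0.34.

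The machinery of engulfment differed little. Of 9 tested genes 0 were 2-fold higher and 1 was lower, Bcar1 with 7 and 14 UMIs, and the median was -0.02. Vav1, an exchange factor for Rac, had a log2 ratio of -0.50 (-0.62 to -0.38) and Elmo1, a partner of Dock proteins, -0.34. Crkl had 0.43 and Dock1 0.24.

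Of 13 genes for the handling of engulfed cargo 0 were past 2-fold in either direction, with a median of -0.02. Lipa, the lysosomal acid lipase, had a log2 ratio of 0.76 (0.65 to 0.87) and Npc2, which carries cholesterol out of lysosomes, 0.60 (0.56 to 0.64). Abca1, a cholesterol exporter, had -0.33 and Ppard -0.37. In the list of vitamin K carboxylation, shedding and signalling partners of the TAM receptors 0 of 12 were past 2-fold, and the median was -0.04. Socs3, an inhibitor of cytokine signalling, was at 385 and 213 CPM, a log2 ratio of -0.85 (-0.93 to -0.78), and Adam10, a protease that can shed surface receptors, had -0.36. Vkorc1l1, of the vitamin K cycle, had 0.71 (0.44 to 0.98).

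**Figure D5:**
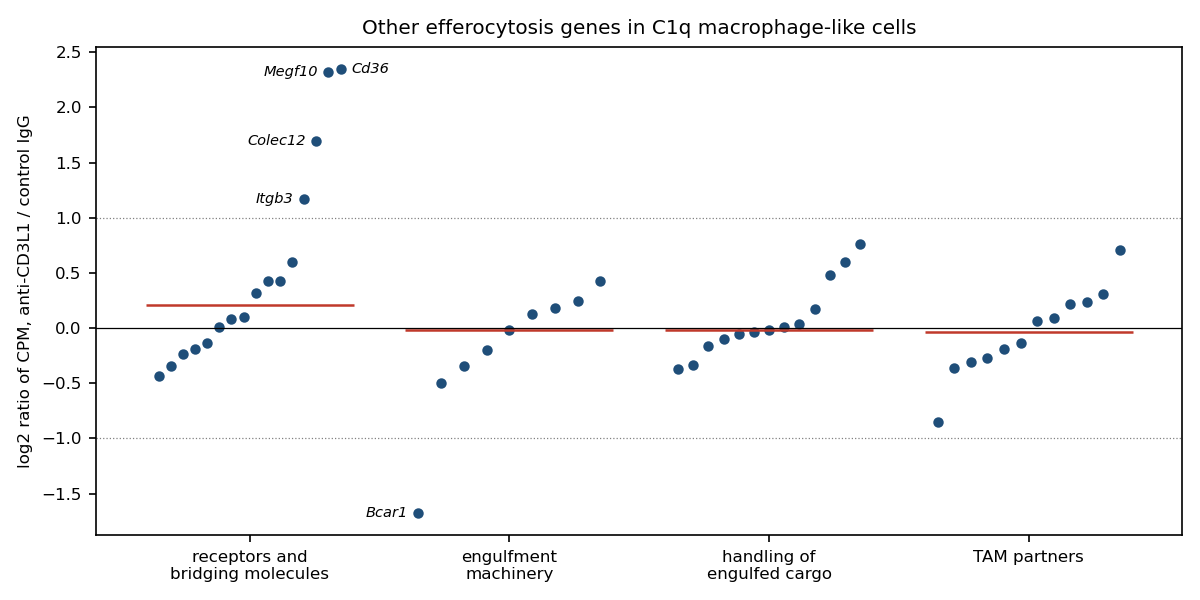
Log2 ratio of CPM under anti-CD3L1 over control IgG in C1q macrophage-like cells for the tested genes of 4 lists. Each point is 1 gene, red lines are list medians, dotted lines mark 2-fold, and genes past 2-fold are named. Cd36 at 2.35 and Colec12 at 1.70 stand out among the receptors, and the other lists centre near 0.

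In monocyte-like cells Cd36 and Colec12 were also higher under anti-CD3L1, with log2 ratios of 1.99 and 1.64. The receptor list there had 4 of 15 genes at least 2-fold higher and 1 lower, Thbs1 at -1.24, beside a median of 0.20. Among all genes tested in this class 11.0% were at least 2-fold higher and 2.43% lower. The cargo list had 2 of 13 higher, Pparg at 1.91 and Lipa at 1.22, with a median of 0.39 against 0.26 for all genes tested. Engulfment genes had 0 of 8 past 2-fold and a median of 0.36. The partner list had 0 of 12 higher and 1 lower, Socs3 at -1.24, and a median of -0.07.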

How the data were processed

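Immune cells of 143B tumors were profiled in 1 library per group. The deposited matrices hold UMI counts of every barcode, before any cell call. The submitters' processing notes name Cell Ranger 7.1.0, Seurat 5.1.0 and GRCm39. A deposited list of macrophage genes with the authors' own fold changes and p-values was not used. Barcodes were kept with at least 500 UMIs, more than 200 and fewer than 6000 genes and under 5% mitochondrial UMIs. Totals over all barcodes were 74850604 and 108246719 UMIs.

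Classes were gated on summed UMIs of marker genes per 10000 UMIs, with cuts set after their distributions were seen, and 382 and 1596 cells lay within 10 to 40 around the C1q cut of 20. Cells positive for several classes (221 and 359) were left out, except those positive for C1q and monocyte markers, which were kept as a class. No doublet caller was run. UMIs were summed per class, with exact Poisson intervals for CPM and exact binomial intervals for shares and ratios, at 95%. A count of 0 was bounded by 3 counts. A log2 ratio was taken where both libraries had at least 50 cells, and counts of genes past 2-fold and list medians used 0.5 added counts. The ratio code was tested on simulated data. Python 3.11.15, numpy 2.4.6, scipy 1.17.1, pandas 2.3.3 and matplotlib 3.10.9 were used.

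The 8 genes and the lists were chosen with earlier results of these data known. Pathway genes were named by rule, as the 2 highest and 2 lowest ratios of each list among genes of at least 20 CPM in a library, and genes like a member were the 3 of highest r among those of at least 50 CPM. Some genes that these rules or a gate include are not reported here. Bcar1, Itgb3, Megf10, H2-Ab1 and the genes named in monocyte-like cells were chosen after their values were seen.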

Additional observations from a re-analysis of the deposited data

Results flagged for a closer look

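Mertk differed in opposite directions between classes, with log2 ratios of anti-CD3L1 over control IgG of -0.55 in C1q macrophage-like cells, 1.75 in monocyte-like cells, 0.52 in the Csf1r-gated remainder and 2.45 in neutrophil-like cells, the last from 31 and 7 UMIs. Neutrophil-like cells, at 0.966 and 5.29 CPM, lay below free RNA in both libraries. Monocyte-like cells lay below it under control IgG and overlapped it under anti-CD3L1. The C1q gating genes summed to 34.9 and 166 CPM in neutrophil-like cells and to 1260 and 3947 CPM in free RNA. The part of free RNA in these ratios was not tested. The difference between classes was not tested across samples, since each group has 1 library.

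The cells that matched no class entered the ratios over all cells but no class comparison between libraries. In them the counting interval of the ratio left out 1 for the genes named next. The share of all genes of which this holds was not computed, so their number is not read as a result. The ungated cells also differed between the libraries, with medians of 3221.5 and 5857 UMIs. They were led by Dut and Mcm6 under control IgG and by Tecpr2 and Ptprk under anti-CD3L1. Timd4 was at 55.0 CPM in ungated cells against 11.6 CPM under control IgG, and Axl at 54.6 against 16.9 CPM. Mfge8 was at 12.2 against 6.63 CPM, Pros1 at 8.39 against 3.32 CPM and Mertk at 7.78 against 3.04 CPM. Stab1 was lower there, at 9.53 against 14.6 CPM, a ratio of 0.651 (0.465 to 0.921).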

How the results depend on the processing

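The library ratios and the counts of pathway genes were recomputed with other cell filters, gates and scalings, and with NK-like UMIs subtracted. Of these 164 values, 145 stayed within the counting interval of the reported value, or for counts within 1.5 times it, and 19 did not. The sign changed in 2 of them, for Stab1 in monocyte-like cells, at 0.019 with gate thresholds doubled, and for Gas6 in C1q macrophage-like cells. Some settings changed the cells little. Of 341 and 3046 C1q macrophage-like cells, a minimum of 1000 UMIs kept 340 and 3031, and more than 500 genes kept 340 and 3035. Such settings could hardly move a value, so the count of 145 does not measure stability. With macrophages gated without C1q genes the log2 ratios in the macrophage class were 0.66 (0.37 to 0.95) for Gas6, 1.40 for Axl, -0.16 for Mertk and -0.53 for Stab1. The Csf1r-gated remainder, a different set of cells under that gate, had 1.68 for Axl and -0.52 for Stab1. Doubled thresholds gave Axl 1.35 in monocyte-like cells and 2.57 in the remainder, and halved thresholds gave 2.03 in monocyte-like cells. Stab1 in C1q macrophage-like cells was -0.62 with cells of several classes kept. Mfge8 was 0.90 (-0.07 to 2.06) without the 5% of barcodes with most UMIs and 1.06 without the cell with most UMIs of the gene. Scaling by the median gene gave Axl 1.51 in monocyte-like cells, and subtracting NK-like UMIs gave Mertk 2.43 there. With the mean over cells, Axl was 2.34 and Mertk 0.25 in the remainder. At a floor of 100 UMIs, 46 in place of 50 pathway genes were tested, and those at least 2-fold higher in C1q macrophage-like cells were 2 in place of 4 and those lower 0 in place of 1. The interval of Pros1 in C1q macrophage-like cells held 0 with mitochondrial UMIs under 10% (0.34), doubled thresholds (0.29), macrophages gated without C1q genes (0.32) and the 5% of barcodes with most UMIs left out (0.36). That of Stab1 in monocyte-like cells held 0 with doubled thresholds and with macrophages gated without C1q genes (-0.13). Of 29 values on thinned shares and the Folr2 split 5 moved and 3 changed sign, the Gas6 and Mertk shares at 2000 UMIs and the Folr2 log2 ratio of Mfge8 under control IgG, from -0.24 to 0.04. The causes of these shifts were not tested. No paired analysis was possible because each group has 1 library, and for the same reason no library could be left out. Depth limits Tyro3 in all classes and Timd4 and Mfge8 in macrophage-like cells.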
